A study of Danio rerio with 6 samples.

Results

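Blocking the microRNA miR-430 in early zebrafish embryos was examined by setting embryos injected with a morpholino against it (miR-430 MO) beside control embryos of the same age, 6 hours post fertilisation (control 6 hpf). A morpholino is a synthetic antisense oligonucleotide. Of 32571 genes in the deposited table, 15611 had a level of at least 1 FPKM (sequenced fragments scaled to transcript length and library size) in either group, and these make up the comparison. Both groups were whole embryos of the AB strain with no allele named, and each RNA extract came from 40 to 50 embryos. The other groups of the series serve as background and for defining gene classes: 6 hpf embryos injected with CNOT7-DN, given as inhibition of the deadenylase CNOT7, 6 hpf embryos injected with a-amanitin, which blocks RNA polymerase II, the 6 hpf control of that experiment (control B), and control embryos at 2 hpf. The libraries were stranded and made from total RNA without ribosomal RNA, so transcripts were read whether or not they kept a poly(A) tail. The design states triplicates, but the table gives 1 FPKM per gene and group. No value below therefore has a standard deviation, and the depth behind it is unknown. The words rose, fell and changed are kept for genes that passed the authors' test at a q-value (adjusted p-value) under 0.05 in their deposited table. No group injected with a control morpholino was analysed here, so injection of a morpholino and loss of miR-430 cannot be told apart.

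Maternal RNAs loaded into the egg run the first hours of zebrafish development and are removed once the embryo transcribes its own genome. miR-430 is among the first and most abundant products of that genome. It binds sites in the untranslated ends of maternal mRNAs through its seed, recruits the CCR4-NOT deadenylase through Argonaute and TNRC6 proteins, and so speeds their deadenylation and decay. Embryos that cannot make mature microRNAs keep many maternal mRNAs and have defects of gastrulation and brain morphogenesis, which injected miR-430 largely corrects.

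The miR-430 genes themselves stand in 53 rows of the table, 52 of them on chromosome 4 between 28000731 and 28017085 on Zv9. Of these 53 rows, 51 were listed at 0 FPKM in both groups. The row mir430a-11 (chromosome 4, 28008949 to 28009079 on Zv9) was the single one tested. It had 10662 FPKM in miR-430 MO, against 9551 in control 6 hpf (q of 0.453 in the authors' deposited table). Its level was 3299 FPKM in control B and 12.2 in amanitin, and 5.27 in 2 hpf embryos. The row dre-mir-430b-4 had 46.9 FPKM in miR-430 MO and 0 in control 6 hpf and was not tested. The locus was thus read in both 6 hpf groups, and no row gives the level or the activity of the mature microRNA. Reads from near-identical copies cannot be assigned to 1 copy, so the values of single rows are uncertain.

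Across all genes, 1346 rose and 2296 fell in miR-430 MO in the authors' deposited table, or 9.41% and 16.1% of the 14301 tested. Falls were mostly small: 8.19% of them reached 2-fold on log2 of (FPKM + 1), the scale of every log2 value here, while 23.7% of the rises did. Judged by size, 415 genes stood 2-fold or more above control 6 hpf (2.66% of those considered) and 353 as far below it (2.26%). Those 768 genes are 4.92% of those considered, and the untreated controls, control B against control 6 hpf, were 2-fold apart at 3.92% of 15828 genes. Scaling moved this balance: 54.0% of the 2-fold differences were upward as deposited, and 70.5% after centring on the median gene. The median log2 ratio over tested genes was -0.12. Among the 319 genes that rose and reached 2-fold, 317 were also above control B and 231 of them at least 2-fold. Of the 188 that fell and reached 2-fold, 186 were below control B, 85 of them at least 2-fold. Set against control B alone, 656 of 15817 genes were higher by 2-fold or more (4.15%) and 840 lower (5.31%). Calls were made most often at middle levels, for 32.9% of genes at 20 to 100 FPKM, and for 15.6% of genes at 1 to 5 FPKM.

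**Figure D1:**
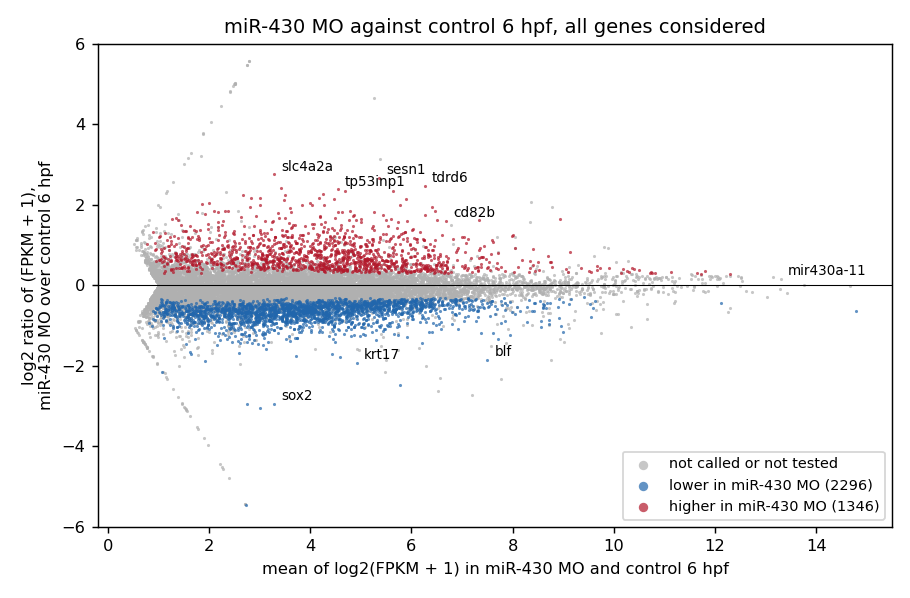
Each point is a gene with an FPKM of at least 1 in miR-430 MO or control 6 hpf. The x axis is its mean level on log2 of (FPKM + 1) and the y axis its log2 ratio, miR-430 MO over control 6 hpf. Red points (1346) rose and blue points (2296) fell in the authors' deposited table. 17 genes lie outside the y axis. Blue points outnumber red ones, yet of the called genes beyond a log2 ratio of 1 either way, 319 are red and 188 blue.

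Among the largest rises were mRNAs of the egg and mRNAs nearly absent from it, when read against groups that the comparison does not use. For the egg mRNAs, FPKM in miR-430 MO was close to that at 2 hpf or part of the way to it. Summed over all rows, FPKM was 726913 at 2 hpf and 1.01094e+06 in miR-430 MO. Values of the 2 stages may therefore not be on the same scale. The gene tdrd6 (chromosome 20, 35470063 to 35484057 on Zv9), a Tudor domain protein of germ granules, had 180.3 FPKM in miR-430 MO, against 31.6 in control 6 hpf, a log2 ratio of 2.48. It stood at 177 FPKM at 2 hpf, 239 in amanitin and 23.8 in control B, so that miR-430 MO was near the 2 hpf value and both controls far under it. The gene fam129bb had 57.2 FPKM in miR-430 MO, against 10.5 in control 6 hpf, beside 83.3 at 2 hpf, 103 in amanitin and 6.55 in control B. Other mRNAs that rose were scarcely present in the egg. The anion exchanger gene slc4a2a (chromosome 2, 32109771 to 32175798 on Zv9) had 24.2 FPKM in miR-430 MO, against 2.72 in control 6 hpf, the largest log2 ratio under the naming rule at 2.76, with 0.592 at 2 hpf, 0.968 in amanitin and 7.93 in control B. The genes cenpv (23.9 FPKM in miR-430 MO against 3.61 in control 6 hpf) and lnx1, a ubiquitin ligase (40.7 in miR-430 MO against 7.58 in control 6 hpf), behaved alike, with under 1 FPKM in amanitin and at 2 hpf. All 12 of the largest rises had the lowest q-value in the authors' deposited table, 0.000589.

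Genes were then classed with control B, 2 hpf and amanitin alone, so that no class uses a value of the comparison. A gene was cleared if it had at least 5 FPKM at 2 hpf and control B was at least 2-fold lower. Cleared genes were split by whether amanitin was at least 2-fold above control B, and those above it are called kept in amanitin. Amanitin was not compared with 2 hpf, so kept means more than in control B, not unchanged since the egg. For example dazl, in the kept class, had 209 FPKM at 2 hpf and 52.2 in amanitin. Of 2109 tested cleared genes kept in amanitin, 521 rose (24.7%) in the authors' deposited table and 224 fell (10.6%). Of 2668 cleared genes not kept in amanitin, 43 rose (1.61%) and 813 fell (30.5%). Over all tested genes the shares are 9.41% and 16.1%. The median log2 ratio was 0.07 in the kept class, -0.35 in the class not kept and -0.12 over all tested genes. Stable genes, at 2 hpf and in control B within 1.5-fold, rose in 7.51% and fell in 12.5% of 2970. Genes of the kept class are 38.7% of all that rose and 14.7% of all tested. The difference between the classes was not tested.

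**Figure D2:**
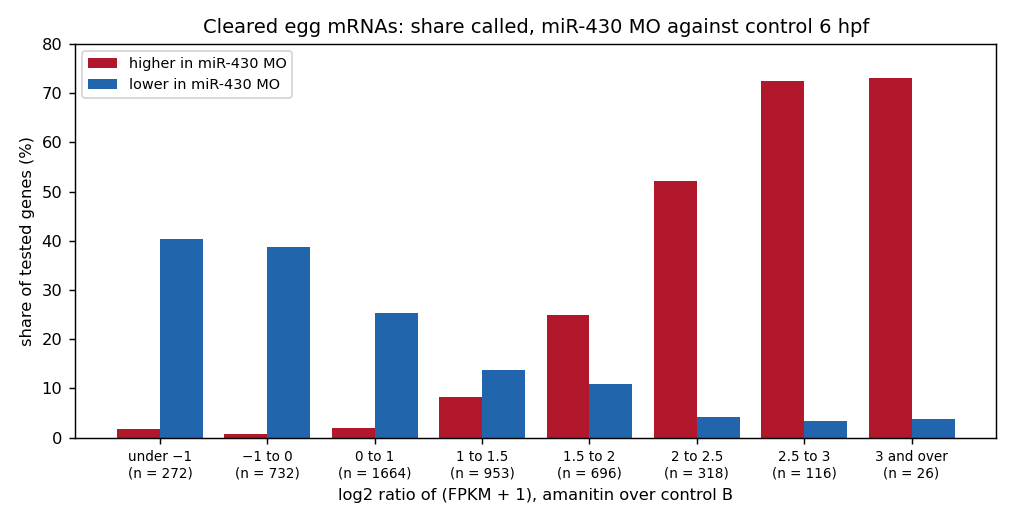
Cleared egg mRNAs in 8 bins of their log2 ratio of amanitin over control B (x axis, number of tested genes in brackets) with the share that rose (red) or fell (blue) in miR-430 MO against control 6 hpf (y axis, percent). Bars stand for the authors' calls at q under 0.05. The red share goes up from 1.84% in the lowest bin to 73.1% in the highest, and the blue share down from 40.4% to 3.85%.

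Within the cleared genes the share that rose followed how far amanitin stood above control B. It was 1.92% where the log2 ratio of amanitin over control B was 0 to 1, 25% at 1.5 to 2, 52.2% at 2 to 2.5 and 72.4% at 2.5 to 3. The share that fell was 25.2%, 10.9%, 4.09% and 3.45% in the same bins. The top bin, at 3 and over, holds 26 genes, of which 19 rose and 1 fell. Both controls enter this picture in different roles, since control B set the classes and control 6 hpf the calls. They differed: in the kept class control B was under control 6 hpf by a median log2 ratio of -0.39, the class having been chosen for low control B. Summed over the kept class, miR-430 MO had 47624 FPKM, control 6 hpf 39155, control B 28297 and 2 hpf 108239. All 521 genes of this class that rose were also above control B. Of the 224 that fell, 167 were below it.

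For several of the strongest rises in the kept class FPKM in miR-430 MO was near or above that at 2 hpf. As summed FPKM was larger in miR-430 MO than at 2 hpf, a value above 2 hpf need not mean more mRNA than in the egg. The gene eif4ebp2, a repressor of cap-dependent translation, had 165 FPKM in miR-430 MO, against 45.4 in control 6 hpf, with 121 at 2 hpf and 232 in amanitin. The receptor gene ly75 had 51.6 FPKM in miR-430 MO, against 13.6 in control 6 hpf, with 44.5 at 2 hpf. Not all strong changes in this class were rises. Here rpp25l, which codes for an RNA-binding protein, fell to 22.2 FPKM in miR-430 MO, against 128 in control 6 hpf, with q at 0.0378 in the authors' deposited table. Among cleared genes not kept in amanitin, rorca, a nuclear receptor gene, fell to 4.02 FPKM, against 14.1 in control 6 hpf. The Polycomb gene bmi1b fell to 3.75, against 12 in control 6 hpf, with 86.2 at 2 hpf.

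A list of candidate miR-430 targets, drawn from genes discussed with this microRNA, has 21 rows with a measured level out of 24. Of these, 10 rose (47.6%, beside 9.41% of all tested genes) and 3 fell (14.3%, beside 16.1%). The median log2 ratio was 0.29. All 10 were also above control B. The 8 best-known targets in zebrafish split: 4 rose, 1 fell and 3 did not pass the test.

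Of the 4 secreted signals on the list, 3 rose. The Nodal ligand ndr1 (squint; chromosome 21, 19838660 to 19840960 on Zv9) had 43.2 FPKM in miR-430 MO, against 21.6 in control 6 hpf, with 17.8 in control B. Its antagonist lft2 had 133 FPKM in miR-430 MO, against 82.1 in control 6 hpf, with 50.8 in control B. The second antagonist, lft1, had 47.3 FPKM in miR-430 MO and 39.5 in control 6 hpf, with q at 0.191. The chemokine cxcl12a, which guides migrating cells, had 23 FPKM in miR-430 MO, against 10.6 in control 6 hpf, with 9.998 in control B. Of the receptors of that chemokine, cxcr4a and cxcr4b fell and cxcr7b did not pass the test. The receptor cxcr4a fell to 82 FPKM, against 175 in control 6 hpf and 137 in control B, while cxcr4b fell to 167, against 219 in control 6 hpf (q of 0.0103). The scavenger receptor cxcr7b had 32.6 FPKM in miR-430 MO and 41 in control 6 hpf (q of 0.0731). The ligand cxcl12b, not on this list, had a larger ratio than cxcl12a and rose to 22.1 FPKM against 4.34 in control 6 hpf and 10.4 in control B.

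Several egg mRNAs on the candidate list rose. Others did not: nanos3 fell, and fbxo43, ABTB1, msna, kbtbd8 and dazl did not pass the test. The tetraspanin gene cd82b (chromosome 18, 27520355 to 27575299 on Zv9) had 178 FPKM in miR-430 MO, against 57.6 in control 6 hpf, a log2 ratio of 1.61. It stood at 218 FPKM at 2 hpf, 326 in amanitin and 30.4 in control B. The glutathione transferase gstm had 91.5 FPKM in miR-430 MO, against 29.8 in control 6 hpf, with 19.2 in control B. The cyclin gene ccna1, active in eggs, had 751 FPKM in miR-430 MO, against 420.5 in control 6 hpf, with 278 in control B. The superoxide dismutase sod1 had 111 FPKM in miR-430 MO, against 66 in control 6 hpf, with 43.7 in control B. All 4 had q at 0.000589 in the authors' deposited table and lay above both controls. The gene hmmr rose by less, to 74.7 FPKM in miR-430 MO, against 57.7 in control 6 hpf (q of 0.0411). The gene tp53inp1 is on this list and among the damage and cell death genes, where its values are given.

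Germ plasm mRNAs are held in the few cells that become the germ line and are cleared elsewhere, and in whole embryos fewer such cells and less RNA per cell cannot be told apart. Of 21 measured germ plasm rows, 3 rose (14.3%, beside 9.41% of all tested genes) and 2 fell (9.52%, beside 16.1%), with a median log2 ratio of -0.02. Against control B the median was 0.35. All 3 that rose are Tudor domain genes of germ granules. Besides tdrd6, they were tdrd1 (52.5 FPKM in miR-430 MO, against 15 in control 6 hpf, with 9.13 in control B) and tdrd7 (29.9 FPKM in miR-430 MO, against 16.6 in control 6 hpf, with 17.6 in control B). The gene nanos3, a translational repressor that keeps germ cells alive and a classic target of miR-430, fell to 14.9 FPKM, against 23.9 in control 6 hpf (q of 0.00231). In control B it was 15.5 FPKM, close to its level in miR-430 MO. The RNA-binding protein gene dazl had 33.9 FPKM in miR-430 MO and 34.4 in control 6 hpf (q of 0.954). The germ plasm organiser buc had 101 FPKM in miR-430 MO and 96.5 in control 6 hpf (q of 0.826), and vasa, an RNA helicase of germ granules, had 99 FPKM in miR-430 MO and 90.6 in control 6 hpf (q of 0.492). Each of the last 3 was within 1.5-fold between the groups.

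Of 35 measured oocyte and egg genes, 10 fell (28.6%, beside 16.1% of all tested genes) and 4 rose (11.4%, near the 9.41% of all), with a median of -0.16. Against control B the median was 0.12, with all 10 that fell below it and all 4 that rose above it. These margins could be small: of the 35, 2 stood 2-fold or more above control B and 0 as far below it. The gene btg4, among the 10, was nearly level with control B (29.1 FPKM in miR-430 MO and 29.5 in control B). The 4 were ccna1, the B-type cyclin ccnb2 (438 FPKM in miR-430 MO, against 295 in control 6 hpf), the spindle gene aspm (92.9 FPKM in miR-430 MO, against 57.7 in control 6 hpf) and the nucleoplasmin NPM2 (121 FPKM in miR-430 MO, against 85.1 in control 6 hpf). Those that fell included org, zar1l and mos, which stood far higher at 2 hpf. The oogenesis-related gene org fell to 37.3 FPKM, against 92.6 in control 6 hpf and 675 at 2 hpf. The oocyte factor zar1l fell to 25.8, against 56.6 in control 6 hpf and 496 at 2 hpf. The kinase mos, which holds the egg in meiosis, fell to 7.36, against 15.3 in control 6 hpf and 170.2 at 2 hpf. In amanitin these 3 stood at 72.8, 27.1 and 12.8 FPKM, against control B (74.6, 44.9 and 12.7). None of the 3 was kept well above control B by amanitin. The oocyte claudin cldng fell to 51.7 FPKM, against 97.8 in control 6 hpf and 67 in control B. It too was far higher at 2 hpf, at 1373 FPKM.

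Of 11 measured rows listed as maternal transcription factors, 2 rose (18.2%, beside 9.41% of all tested genes) and 4 fell (36.4%, beside 16.1%), with a median of -0.14. Among them are factors that open the embryonic genome, and not all were abundant in the egg. The T-box gene eomesa, a maternal activator of endoderm genes, had 32.2 FPKM in miR-430 MO, against 11.7 in control 6 hpf, with 13 in control B. The SoxB1 gene sox19b had 193 FPKM in miR-430 MO, against 83.1 in control 6 hpf, with 70.2 in control B. Its zygotic relatives went the other way, as described with the patterning genes. The pluripotency factor pou5f1 fell to 616 FPKM, against 755 in control 6 hpf (q of 0.0384), and the Nodal effector foxh1 to 71.3, against 93.2 in control 6 hpf (q of 0.00868). Both were higher still in control B, at 888 and 126 FPKM. The genes mych and klf4b also fell, mych to 395 FPKM, against 570 in control 6 hpf, and klf4b to 127, against 198 in control 6 hpf. At 2 hpf they stood at 13.1 and 0.762 FPKM, and in amanitin at 2.09 and 0.723. The gene klf4b is zygotic by the rule given below.

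The machinery through which microRNAs act was measured in 13 rows, of which 7 rose (53.8%, beside 9.41% of all tested genes) and 1 fell (7.69%, beside 16.1%), with a median log2 ratio of 0.56. Dicer, dicer1 (chromosome 17, 19250141 to 19293508 on Zv9), which cuts microRNA precursors, had 24.6 FPKM in miR-430 MO, against 11.4 in control 6 hpf, with 16.9 in control B. The Drosha partner dgcr8 had 122 FPKM in miR-430 MO, against 71.4 in control 6 hpf, with 49.7 in control B. Argonaute genes, whose proteins carry the microRNA, rose in 4 of their 5 rows: AGO1 (16.6 FPKM in miR-430 MO, against 8.19 in control 6 hpf), eif2c3b (29.8 FPKM in miR-430 MO, against 16.2 in control 6 hpf), eif2c4 (46.1 FPKM in miR-430 MO, against 30.4 in control 6 hpf) and a row that the reference list of names calls AGO2 (68.3 FPKM in miR-430 MO, against 46.2 in control 6 hpf). The Argonaute row EIF2C1, close to the row AGO1 on chromosome 16, had 9.86 FPKM in miR-430 MO and 7.71 in control 6 hpf (q of 0.133). The adaptor TNRC6A had 84.9 FPKM in miR-430 MO, against 54.7 in control 6 hpf, but 89 in control B, so that it was higher than 1 control and not the other. The nuclease Drosha, listed as rnasen, fell to 4.68 FPKM, against 12 in control 6 hpf and 12.8 in control B. It was 43.2 at 2 hpf and 7.33 in amanitin.

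Of 28 measured genes of the CCR4-NOT complex and other deadenylation factors, 8 rose (28.6%, beside 9.41% of all tested genes) and 2 fell (7.14%, beside 16.1%), with a median of 0.06. Against control B the median was -0.06, and 7 of the 8 that rose were above that control. The largest rise was that of btg1, an anti-proliferative adaptor of the deadenylase, with 140.4 FPKM in miR-430 MO, against 41.2 in control 6 hpf, with 72.6 in control B. It was low in the egg and where transcription was blocked, with 3.35 FPKM at 2 hpf and 1.74 in amanitin. Its relative tob1a had 193 FPKM in miR-430 MO, against 93 in control 6 hpf. In contrast tob1b fell to 14.7 FPKM, against 24 in control 6 hpf and 20.2 in control B. The catalytic subunit cnot7 had 12.6 FPKM in miR-430 MO, against 7.4 in control 6 hpf (q of 0.01). The oocyte member of the family, btg4, fell to 29.1 FPKM, against 58.4 in control 6 hpf. It stood at 29.5 in control B and 618 at 2 hpf.

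Decapping and decay factors were called in shares near those of all tested genes (9.41% and 16.1%): 7 of 50 rose (14%) and 9 fell (18%), with a median of -0.09. The decapping activators lsm1 (39.9 FPKM in miR-430 MO, against 13.5 in control 6 hpf), ddx6 (99.6 FPKM in miR-430 MO, against 43.2 in control 6 hpf) and lsm4 (99.2 FPKM in miR-430 MO, against 46.1 in control 6 hpf) rose, and each lay above control B (10.4, 30.6 and 29.9 FPKM). Among those that fell were subunits of the RNA exosome, which degrades RNA from its other end, picked after their values were seen. For example exosc4 fell to 38.1 FPKM, against 60.4 in control 6 hpf (q of 0.00152), and exosc8 to 20.02, against 31.8 in control 6 hpf (q of 0.00702). The subunits exosc1, exosc7, exosc9 and exosc10 did not pass the test.

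Genes of the response to DNA damage and of cell death rose beside the maternal mRNAs. Their products arrest the cell cycle and start cell death after damage, and the response is known to be switched on by some morpholinos in zebrafish embryos. Of 28 measured rows, 14 rose (50%, beside 9.41% of all tested genes) and 1 fell (3.57%, beside 16.1%), with a median log2 ratio of 0.58. All 14 also lay above control B. They include isg15, an interferon-linked gene also on the heat shock and interferon list, and cdkn1a, also on the cell cycle list. Over symbols on 1 row only, 12 rose. The stress protein gene sesn1 (chromosome 20, 32263285 to 32270038 on Zv9) had 102 FPKM in miR-430 MO, against 15.2 in control 6 hpf, a log2 ratio of 2.68, with 18.6 in control B and 8.21 in CNOT7-DN. Another row of the symbol sesn1 did not pass the authors' test (q of 0.286).

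Several cell death genes of the list rose by more than 2-fold. The regulator tp53inp1 had 52.3 FPKM in miR-430 MO, against 9.18 in control 6 hpf, with 15.7 in control B. The BH3-only killer bbc3 (Puma) had 32 FPKM in miR-430 MO, against 9.06 in control 6 hpf, with 13.4 in control B. The initiator caspase casp8 had 108 FPKM in miR-430 MO, against 26.1 in control 6 hpf, with 32.6 in control B. In each of them control B lay between miR-430 MO and control 6 hpf. The Akt inhibitor phlda3 had 123 FPKM in miR-430 MO, against 27.1 in control 6 hpf, with 35.1 in control B. In contrast bida, another BH3-only gene, fell to 5.65 FPKM, against 9.5 in control 6 hpf (q of 0.0292). The cell cycle inhibitor cdkn1a (p21) had 76.5 FPKM in miR-430 MO, against 26.9 in control 6 hpf, with 38.3 in control B. The damage gene gadd45aa had 34.7 FPKM in miR-430 MO, against 12.7 in control 6 hpf, with 14.9 in control B.

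The ubiquitin ligase gene mdm2 had 463 FPKM in miR-430 MO, against 249 in control 6 hpf, and stood at 449 FPKM in control B, nearly as high as in miR-430 MO. Other genes of the response had larger ratios. The forkhead factor foxo3b had 110.2 FPKM in miR-430 MO, against 21.1 in control 6 hpf, with 39.8 in control B. The row of mir34, a microRNA gene not on the list, was picked after its values were seen and had 12.9 FPKM in miR-430 MO, against 3.19 in control 6 hpf, with 5.58 in control B. Where transcription was blocked, these genes differed. In amanitin casp8 had 39.5 FPKM, against 32.6 in control B, and sesn1 had 17.1, against 18.6 in control B. By contrast foxo3b, cdkn1a, bbc3 and mir34 stood at 1.18, 0.269, 1.57 and 0 FPKM in amanitin, each far below control B. In the embryos injected with CNOT7-DN, foxo3b, cdkn1a and bbc3 stood at 6.74, 9.71 and 2.94 FPKM, below miR-430 MO and both controls. The part of this response in the other changes was not tested.

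**Figure D3:**
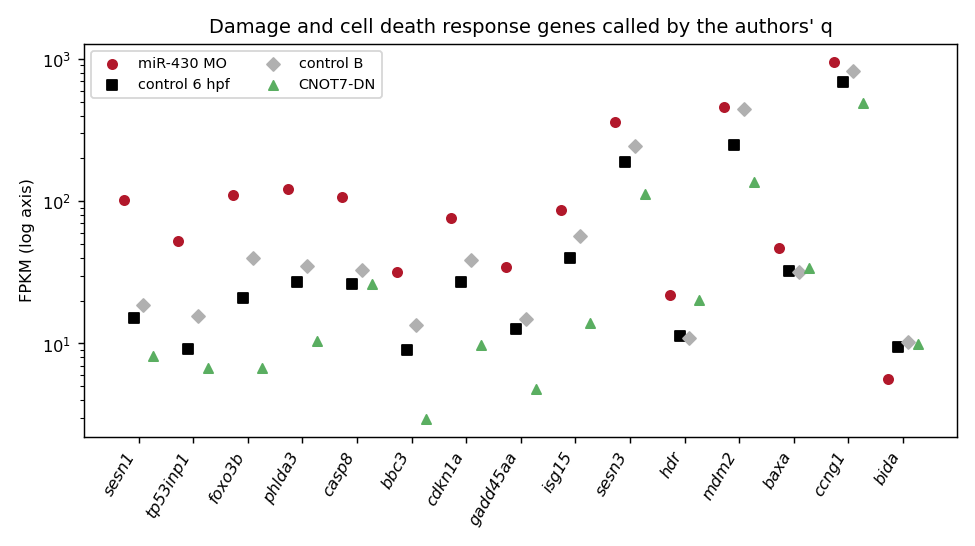
FPKM (log axis) of the 15 damage and cell death response rows called in the authors' deposited table, ordered by their log2 ratio, in miR-430 MO (red circles), control 6 hpf (black squares), control B (grey diamonds) and CNOT7-DN (green triangles). Each symbol is 1 deposited value. The first 14 are highest in miR-430 MO, and bida, at the right, is lowest there.

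Genes first made by the embryo fell in a larger share than all tested genes, and rose in a share near that of all genes. A gene was called zygotic if it had under 1 FPKM at 2 hpf and at least 5 in control B. Of 1000 tested, 224 fell (22.4%, beside 16.1% of all tested genes) and 82 rose (8.2%, beside 9.41%) in the authors' deposited table, with a median log2 ratio of -0.20. Part of this excess of falls lay on chromosome 4 from 20 Mb on, where 56 of 99 zygotic genes fell. Outside chromosome 4, 18.9% of 878 zygotic genes fell, beside 15.3% of all tested genes there. For CNOT7-DN over control 6 hpf the median of this class was -0.27. The controls differed here too: control B was above control 6 hpf by a median of 0.33, the class having been chosen for its level in control B. Of the 224 that fell, 219 were below control B as well. Of the 82 that rose, 68 were above it. The part of the difference between the controls in these falls was not tested.

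Later-stage markers are genes of somites, muscle, blood, vessels, nerve cells and pancreas. Of their 34 rows, 7 reached 1 FPKM in either group and were tested. Of these 3 fell (42.9%, beside 16.1% of all tested genes) and 1 rose (14.3%, beside 9.41%), with a median log2 ratio of -0.35. The median was -1.07 for miR-430 MO over control B and 0.72 for control B over control 6 hpf. For CNOT7-DN over control 6 hpf it was -0.54. The Delta ligand gene dld fell to 31.6 FPKM, against 45.3 in control 6 hpf and 56.3 in control B, while its relative dlb rose to 6.43, against 2.23 in control 6 hpf and 2.07 in control B. The pancreas homeobox gene pdx1 (q of 0.049) and mespaa, described with the mesoderm genes, were the other 2 that fell. The gene pdx1 had 1.88 FPKM in miR-430 MO, against 3.51 in control 6 hpf and 7.38 in control B. It was also read at 2 hpf (4.87 FPKM) and was highest in amanitin (14.1 FPKM), so its RNA was not absent from the egg. The part of such differences in the falls of zygotic and patterning genes was not tested.

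Transcription factors that pattern the embryo fell in 18 of 45 measured rows, of which 44 were tested (40.9%, beside 16.1% of all tested genes), and 3 rose (6.82%, beside 9.41%), with a median of -0.37. For CNOT7-DN over control 6 hpf the median was -0.35. The neural SoxB1 factor sox2 (chromosome 22, 40333145 to 40512173 on Zv9) fell to 2.5 FPKM, against 25.9 in control 6 hpf, a log2 ratio of -2.94. It stood at 46.6 in control B and 6.53 in CNOT7-DN, so miR-430 MO and CNOT7-DN were below both controls. Its row shares a locus with another row, so the value is uncertain. The SoxB1 genes sox3 and sox19a fell by less, sox3 to 156 FPKM, against 299 in control 6 hpf, and sox19a to 225, against 425 in control 6 hpf. The Wnt target sp5l fell to 6.22, against 23.3 in control 6 hpf and 91.6 in control B. The posterior homeobox gene cdx4 fell to 7.48, against 16.4 in control 6 hpf and 38.3 in control B. The ventral homeobox gene eve1 fell to 23.7, against 62.1 in control 6 hpf and 87.6 in control B. For sox2, sp5l and cdx4 the gap between the controls was large, and for eve1 it was smaller. In each of them control B was the highest and miR-430 MO the lowest of the 3. The ectodermal forkhead gene foxi1 and the SoxC gene sox11a rose, foxi1 to 34.3 FPKM against 19.3 in control 6 hpf and sox11a to 214 against 131 in control 6 hpf.

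Of 44 measured rows of mesendoderm and Nodal genes, 43 were tested, 6 rose (14%, beside 9.41% of all tested genes) and 11 fell (25.6%, beside 16.1%), with a median of -0.05. For CNOT7-DN over control 6 hpf the median was -0.29. Besides ndr1 and lft2, aplnrb rose, a receptor needed for cells to move inward at gastrulation, with 198 FPKM in miR-430 MO, against 86.1 in control 6 hpf, with 131 in control B. The zinc finger gene blf fell to 94.1 FPKM, against 340.4 in control 6 hpf and 169 in control B. The paraxial mesoderm genes mespaa and mespab fell, mespaa to 3.14 FPKM, against 9.93 in control 6 hpf and 30.1 in control B, while mespab fell to 0.725, against 4.45 in control 6 hpf and 13.3 in control B. The BMP antagonist chd fell to 100.3 FPKM, against 149 in control 6 hpf, and the endoderm factor sox32 to 104, against 156 in control 6 hpf.

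BMP and ventral genes fell in 11 of 25 tested rows (44%, beside 16.1% of all tested genes), and 1, foxi1, rose (4%, beside 9.41%). Their median was -0.32. The ligands bmp4 (25.7 FPKM in miR-430 MO against 38.1 in control 6 hpf) and admp (21.9 in miR-430 MO against 36.2 in control 6 hpf) fell, as did the feedback targets bambia (199 in miR-430 MO against 317 in control 6 hpf) and id1 (634 in miR-430 MO against 931 in control 6 hpf). All 11 lay below control B too. The homeobox targets msxb and msxc fell, msxb to 2.23 FPKM, against 7.14 in control 6 hpf, and msxc to 0.674, against 2.51 in control 6 hpf. Genes of both the dorsal and the ventral side were thus among those lower in miR-430 MO.

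The enveloping layer, the outer epithelium of the embryo, had 12 genes that fell (48%, beside 16.1% of all tested genes) and 2 that rose (8%, beside 9.41%) among 25 measured, with a median of -0.30. Its largest falls were of keratins, while the abundant keratin krt18 had 1527 FPKM in miR-430 MO and 1636 in control 6 hpf (q of 0.639). The keratin krt17 (chromosome 19, 5986622 to 6004990 on Zv9) fell to 14.5 FPKM, against 57.8 in control 6 hpf and 77.5 in control B. The rows krt17 and cyt1 share a locus, so their values are uncertain. The keratins cyt1 and krt5 fell, cyt1 to 17.6, against 37.4 in control 6 hpf, and krt5 to 168, against 312 in control 6 hpf. The tight junction gene cldn7b rose, with 420.2 FPKM in miR-430 MO, against 320.0 in control 6 hpf (q of 0.00445). In the yolk syncytial layer, which feeds the embryo from the yolk, 3 of 21 genes rose and 3 fell (14.3% each, beside 9.41% and 16.1%). Of the 3 that rose, 1 was above control B, and all 3 that fell were below it. The apolipoprotein apoa1b fell to 3.1 FPKM, against 8.46 in control 6 hpf and 38 in control B. The apolipoprotein apobb rose to 2.35, against 0.906 in control 6 hpf, but control B was higher, at 4.05 FPKM.

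Genes of cell movement and adhesion had 7 rises (17.5%, beside 9.41% of all tested genes) and 8 falls (20%, beside 16.1%) among 40 tested. The matrix protease mmp2 rose to 6.34 FPKM, against 0.794 in control 6 hpf and 1.82 in control B. The membrane linker ezrb, an egg mRNA, had 117 FPKM in miR-430 MO, against 57.2 in control 6 hpf, with 33.2 in control B. The polarity gene prickle1a fell to 7.54, against 14.5 in control 6 hpf, and the Wnt receptor fzd7a to 88.2, against 139.6 in control 6 hpf.

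Of 50 measured cell cycle genes, 7 rose (14%, beside 9.41% of all tested genes) and 12 fell (24%, beside 16.1%), with a median of -0.24. Against control B the median was 0.05. Of the 7 that rose, 5 were above control B, and of the 12 that fell, 9 were below it. The cyclin ccnd1 fell to 263 FPKM, against 544 in control 6 hpf and 609.5 in control B. The helicase subunit mcm6 fell to 31.6, against 64 in control 6 hpf and 45.9 in control B. The mitotic inhibitor kinase wee1 rose, with 223 FPKM in miR-430 MO, against 139.8 in control 6 hpf, with 163 in control B. The replication inhibitor gmnn fell to 311 FPKM, against 563 in control 6 hpf, but control B was lower still, at 254. Cytosolic ribosomal proteins were close between the groups, with 1 rise and 1 fall among 84 tested (1.19% each) and a median of -0.01. Of 77 tested genes of oxidative phosphorylation, 3 rose (3.9%) and 7 fell (9.09%), with a median of -0.26. In both lists these shares are below those of all tested genes (9.41% and 16.1%).

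**Figure D4:**
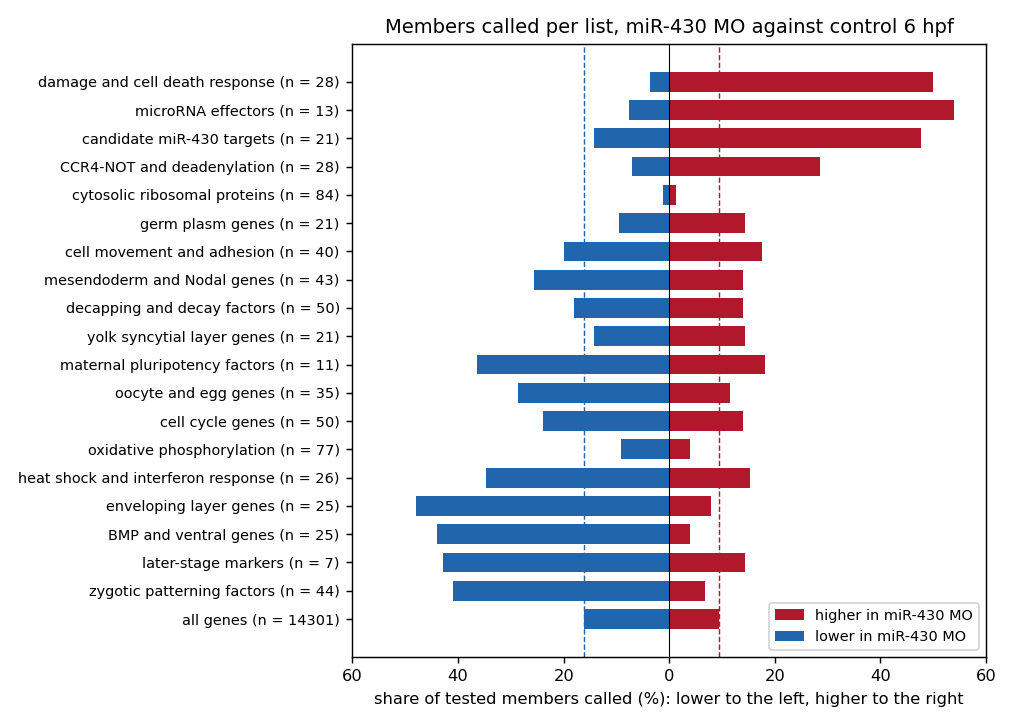
Share of tested members called higher (red, to the right) or lower (blue, to the left) in miR-430 MO against control 6 hpf, in percent, for 19 gene lists ordered by their median log2 ratio, with the number of tested members in brackets. The lowest bar pair gives all 14301 tested genes and the dashed lines carry its shares (9.41% and 16.1%) upward. The damage response, microRNA effector and candidate target lists extend furthest to the right, and the enveloping layer, BMP and later-stage lists furthest to the left.

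Heat shock genes were among the largest falls, and here the controls went apart. The inducible chaperone hsp70l had 1.79 FPKM in miR-430 MO, against 22.1 in control 6 hpf, the largest fall under the naming rule with a log2 ratio of -3.05. Control B had 1.52 FPKM and CNOT7-DN 0.639, so that control 6 hpf alone was high. Control 6 hpf was also the highest and CNOT7-DN the lowest of the 4 for hsp70.3, with 0.975 FPKM in miR-430 MO and 6.27 in control 6 hpf, beside 1.52 in control B and 0.489 in CNOT7-DN. The gene hsp90aa1.2 likewise was highest in control 6 hpf and lowest in CNOT7-DN, with 11.9 FPKM in miR-430 MO and 43.4 in control 6 hpf, beside 16.8 in control B and 9.69 in CNOT7-DN. The endoplasmic reticulum chaperone hsp90b1 fell to 57.2 FPKM, against 102 in control 6 hpf and 109.9 in control B, below both controls. The interferon-linked genes isg15 and mxa of the same list rose. The gene isg15 had 86.9 FPKM in miR-430 MO, against 40.1 in control 6 hpf, with 57.2 in control B. The gene mxa had 2.36 FPKM in miR-430 MO, against 1.11 in control 6 hpf (q of 0.00507). In all, 4 of 26 tested genes of this list rose (15.4%) and 9 fell (34.6%), beside 9.41% and 16.1% of all tested genes.

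The largest falls outside these lists were of single genes. The urea transporter gene slc14a2 (chromosome 5, 54986974 to 54990608 on Zv9) fell to 1.42 FPKM, against 17.7 in control 6 hpf, 17.7 in control B and 24.6 in CNOT7-DN. Both controls were alike there and miR-430 MO stood far below. The gene was listed at 0 at 2 hpf and in amanitin. The gene lrrc31 fell to 3.37, against 10.9 in control 6 hpf, and stood at 3.71 in control B.

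Falls were unevenly spread over the genome. On chromosome 4, 206 of 683 tested genes fell (30.2%) and 36 rose (5.27%). On all other chromosomes and scaffolds together, 15.3% of 13618 fell and 9.62% rose. Most of those on chromosome 4 lay from 20 Mb on, a stretch chosen after the values were seen and known for its zinc finger gene copies. There 170 of 393 tested genes fell (43.3%) and 7 rose, with a median log2 ratio of -0.55. Below 20 Mb, 36 of 290 fell (12.4%) and 29 rose, with a median of -0.07. Between 50 and 60 Mb, 55 of 109 fell (50.5%) in the authors' deposited table. Against control B the median of the far stretch was -0.56, and 349 of the 393 genes were below that control. The controls were level there, at a median of 0.02 for control B over control 6 hpf. Zygotic genes of the stretch fell in 56 of 99 cases (56.6%), and on other chromosomes in 18.9% of 878. The miR-430 cluster lies in the same stretch, between 20 and 30 Mb. In that part 27 of 75 tested genes fell (36%) and 6 rose (8%), with a median of -0.34. Since 79 of the 393 rows share a locus with another row and near-identical copies can share reads, values of single genes there are uncertain.

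**Figure D5:**
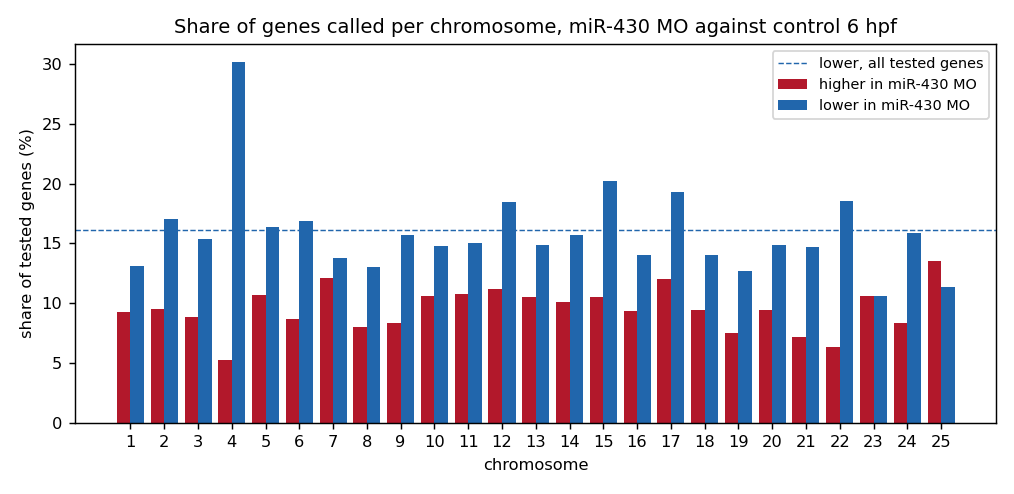
Share of tested genes called higher (red) or lower (blue) in miR-430 MO against control 6 hpf, in percent, for each of the 25 chromosomes. The dashed line is the share called lower over all tested genes, 16.1%. The blue bar of chromosome 4 reaches 30.2%, and that of chromosome 15, the next, 20.2%.

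The labels of tissue and stage were checked against markers, which cannot tell miR-430 MO from control 6 hpf. Of 29 rows of adult tissue markers, 26 were under 1 FPKM in both groups. The 2 that were tested did not pass: the myelin gene plp1a had 2.33 FPKM in miR-430 MO and 1.78 in control 6 hpf (q of 0.184), and the liver gene fabp10a had 0.64 FPKM in miR-430 MO and 2.57 in control 6 hpf (q of 0.454). Patterning, mesendoderm, enveloping layer, yolk syncytial layer and germ plasm genes were measured in both groups, as given above.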

How the data were processed

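RNA of whole AB embryos was sequenced from stranded total RNA libraries depleted of ribosomal RNA, per the labels' protocols. TopHat 1.4.0 and Cuffdiff 2.1.1 with Zv9 (danRer7) are named in the submitters' processing notes. The authors deposited, per the file headers, 1 FPKM per gene and group and a p-value and q-value per comparison. For the scaling of FPKM between libraries, strand in counting and the annotation release, the answer is "not given in the sources used here", while triplicates are stated in the design. No source says whether they came from separate clutches, so the q-values may measure technical spread only. No test was computed here.

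Log2 ratios of (FPKM + 1) were computed for genes at 1 FPKM or more in either group, so changes of low genes are understated. Calls are the authors' q under 0.05. Sizes use a 2-fold limit. Of the genes considered, 19.8% share a locus with another row, so overlapping genes and gene copies are uncertain, and antisense pairs likewise. Loci are the Zv9 positions of the table, whose first-base convention was not checked. Medians and counts of genes that rose or fell are over tested rows. Counts by 2-fold size alone are over all rows considered, unless tested rows are named. In the list of damage and cell death genes 1 gene is not reported here and not counted.

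The members, the 20 gene lists, the classes and the naming rule were chosen with earlier results of these data known. The rule names the 12 largest rises and 12 largest falls among genes at 5 FPKM or more with a symbol on 1 row (placeholder names and small RNAs left out), all candidate targets and microRNA effectors, up to 6 called members of each other list and up to 6 each way per class. Not every gene that the rule covers is described. Other list members named were chosen after their values were seen. Names for rows whose symbol the table lacks came from a reference list of names. Scripts were tested on data of known content and run with Python 3.11.15, numpy 2.4.6, pandas 2.3.3 and matplotlib 3.10.9. The alternatives tried were control B as the control, q under 0.01, a 4-fold class limit, folds of 1.5 and 4, pseudocounts of 0.1 and 5, genes from 5 FPKM or from 0, symbols on 1 row, equal sums in both groups, and centring by the median of all genes or of ribosomal proteins.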

Additional observations from a re-analysis of the deposited data

How the results depend on the processing

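Each group has 1 column, so no replicate could be left out. No paired analysis was possible because the columns carry no replicate numbers. Classes by seed match were not run, since no sequence was at hand. Counts past 2-fold followed the pseudocount, with 650 higher and 785 lower genes at 0.1 and 196 and 99 at 5. The upward share of these was 45.3% and 66.4%. At a fold of 1.5 there were 1117 higher and 1908 lower genes (36.9% upward), and at a fold of 4 there were 58 and 44. Centring on the median gene adds 0.12 and left 234 lower genes. Against control B, 656 genes passed 2-fold upward and 840 downward (43.9% upward). At q under 0.01 in the authors' deposited table, 1269 genes fell, and 0 of the damage and cell death list. Falls at that limit numbered 575 among cleared genes, 119 in the kept class, 456 in the class not kept, 193 among stable and 143 among zygotic genes. Rises numbered 24 in the class not kept and 143 among stable genes. Centred on the median gene, the median log2 ratio was -0.0809 in cleared, 0.19 in kept, -0.23 in not kept, 0.0518 in stable and -0.0787 in zygotic genes. Against control B, which set the classes, these medians were 0.12, 0.48, -0.0884, -0.10 and -0.52, so that the cleared class turns positive. The stable class turns positive by centring. With both groups rescaled to equal sums the medians of the first 4 were -0.17, 0.10, -0.32 and -0.0369. Cleared genes had -0.23 and -0.13 with pseudocounts of 0.1 and 5, and the class not kept had -0.40 and -0.23. Zygotic genes had -0.15 with 5. An FPKM minimum of 5 gave 0.13 in the kept class. A 4-fold limit for the classes gave -0.31 in cleared, 0.55 in kept and -0.40 in not kept genes. Control B also turned the medians of some lists. Against it they were 0.12 for oocyte and egg genes, 0.05 for cell cycle genes, 0.35 for germ plasm genes and -0.06 for deadenylation factors. Single genes were turned by control B as well. Against it the log2 ratio was -0.0679 for TNRC6A, -0.59 for apobb, 0.29 for gmnn and 0.15 for hsp70l. The cause of these shifts was not tested. Beyond 20 Mb of chromosome 4 the median against control B, an alternative chosen after seeing the data, was -0.56.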

Other observations

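Families picked after their values were seen are given as values only. Of 77 tested ribosome biogenesis genes, 42 fell in miR-430 MO (54.5%, beside 16.1% of all tested genes) and 1, gnl1, rose, with a median log2 ratio of -0.43 and -0.41 against control B. All 42 lay below control B as well. The 60S assembly factor ppan fell to 32.2 FPKM, against 76.4 in control 6 hpf and 71.8 in control B. The RNA polymerase I and III subunit polr1c fell to 13.7, against 27.4 in control 6 hpf and 25.1 in control B. The nucleolar rRNA methyltransferase nop2 fell to 28.9, against 53 in control 6 hpf and 59.1 in control B. The abundant nucleolar gene fbl had 379 FPKM in miR-430 MO and 449 in control 6 hpf (q of 0.217 in the authors' deposited table).

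Of 69 tested mitochondrial ribosomal proteins, 25 fell (36.2%, beside 16.1% of all tested genes) and 1 rose (1.45%, beside 9.41%). Their median was -0.42, while the cytosolic ribosomal proteins had a median of -0.01. The mitochondrial subunit genes mrpl1 and mrps6 fell, mrpl1 to 14.4 FPKM, against 24.5 in control 6 hpf, and mrps6 to 30.4, against 51.7 in control 6 hpf. Genes that stood 2-fold or more lower numbered 5 of 77 in ribosome biogenesis and 0 of 72 among mitochondrial ribosomal proteins, beside 2.26% of all genes considered. Of 48 tested proteasome subunits, 2 rose and 2 fell (4.17% each, below both shares of all tested genes), with a median of -0.14. Kinesin motor genes had 6 rises (17.1%, beside 9.41% of all tested genes) and 1 fall (2.86%, beside 16.1%) among 35 tested, with a median of 0.07.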
